A study of Homo sapiens with 6 samples.

Results

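The comparison set THP-1 cells given recombinant human IL-6 for 48 h against THP-1 control cells of 48 h, and so used 2 of the 6 RNA-seq libraries of the series. Genes entered when they were annotated as protein-coding and had a value in all 6 libraries, which held for 13028 of 19978 protein-coding genes. THP-1 is an established human monocytic leukaemia cell line that grows in suspension and serves as a model of monocytes. RNA was collected after 6, 24 and 48 h with the cytokine or without it, and the series asked which genes change with IL-6. No genetic change or other agent is named for either condition, and the dose of IL-6 and what the control cells received are not given in the labels used here.

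There was 1 library for each condition, so no difference below has a replicate check, and no p-value or error is attached to it. The other 4 libraries served to judge the spread of a gene. The measure of spread is the control span, the highest minus the lowest value among the control libraries of 6, 24 and 48 h, among which time and library differ together. Nothing in the labels says whether the libraries came from separate cultures.

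IL-6 binds its receptor IL6R, and the complex joins the signalling chain gp130, the product of IL6ST. Gp130 activates JAK kinases, which phosphorylate the transcription factor STAT3, and STAT3 dimers then bind palindromic DNA sites and switch on target genes. Among these is SOCS3, whose product shuts the receptor complex down again. In liver the pathway drives acute phase proteins, and in monocytes it is known for effects on differentiation and on inflammatory genes.

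Deposited values are on a log2 scale and are centred gene by gene, so 0 is a gene's own mean over its libraries and a difference of 1 means 2-fold. A level could be recovered for 11437 of the genes (87.8%), in an arbitrary unit whose smallest step was taken as 0.001, and it is printed up to 50. Levels are compared within a gene only. Of the protein-coding genes, 14425 had a value in the IL-6 library of 48 h and 14370 in its control, and between 14304 and 14500 in the other 4 libraries. The read depth is unknown. Of the monocyte markers, 9 of 10 had values in every library, among them CD14, CD33, CD68, ITGAM, CSF1R, LYZ, TYROBP and FCER1G, and FCN1 had none in any.

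The pair was alike over most genes, and the genes that stood apart after a filter on level were mostly higher with IL-6. The median difference, IL-6 minus control at 48 h, was -0.04 over the 13028 genes, and the 5th and 95th percentiles were -0.92 and 1.02. A positive difference was found in 45.6% of these genes. In all, 666 genes (5.11%) were at least 2-fold higher with IL-6 and 576 genes (4.42%) at least 2-fold lower, together 1242 (9.53%), and 732 of them (5.62%) were also beyond their control span. Most of these had low levels. Of 1609 genes at a mean level under 1 over the pair, 681 (42.3%) were at least 2-fold apart in either direction.

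At a mean level of at least 10, or without a recovered level, 7165 genes remained, with a median of -0.04 and 5th and 95th percentiles of -0.47 and 0.46. No level was recovered for 1591 of them, and a high level was assumed for these. Among the 7165 genes 61 (0.851%) were at least 2-fold higher with IL-6 and 13 (0.181%) at least 2-fold lower, together 74 (1.03%). The balance of higher to lower was thus 61 to 13 after this filter and 666 to 576 over all genes. The filter takes the mean of the pair, so a gene can pass through its higher library alone. MUC1 did so through IL-6 and OLIG1 through the control. Of the 61 genes, 17 had no recovered level, and 13 were at least 4-fold higher. None of the 13 lower genes reached 4-fold.

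**Figure D1:**
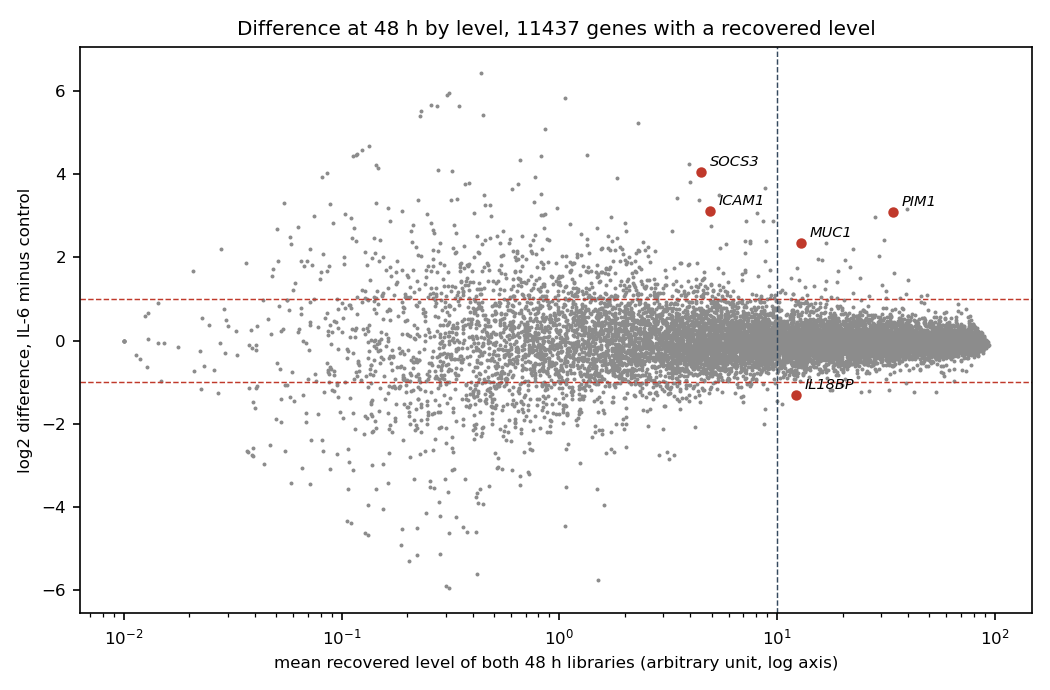
Difference at 48 h, IL-6 minus control on the log2 scale, against the mean recovered level of both 48 h libraries on a log axis, 1 point for each of 11437 genes. Horizontal dashed lines mark 2-fold, the vertical dashed line marks a level of 10, and the scatter is wider below it than above. Red points name SOCS3, ICAM1, PIM1, MUC1 and IL18BP. Genes without a recovered level, CD14 among them, cannot be drawn, and no level above 100 was tried.

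The IL-6 receptor complex itself was close to equal between the libraries. IL6ST was at a level of 8.81 with IL-6 and 8.76 in the control, a difference of 0.01, and IL6R differed by -0.25, less than its control span of 0.41. None of the 13 genes for receptor chains, JAKs, shedding proteases, adaptors and phosphatases was 2-fold apart, beside 9.53% of all genes. Of the 13, 9 were at a mean level of at least 10, where 1.03% of all genes were 2-fold apart. An absence in a list of this size thus says little. The median of the 13 was 0.01. The highest was GAB2 (0.69), an adaptor of growth factor and cytokine receptors, and the lowest was JAK2 (-0.43), a kinase that gp130 can use.

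STAT3 stood at 0.20 (IL-6) and -0.63 (control) at 6 h, at 0.36 (IL-6) and -0.18 (control) at 24 h, and at 0.61 (IL-6) and -0.36 (control) at 48 h. Each IL-6 library was above all 3 controls. The difference at 48 h was 0.97, or 1.96-fold, against a control span of 0.45. Of the 8 STAT and IRF9 genes none reached 2-fold, beside 9.53% of all genes, and beside 1.03% at a mean level of at least 10. At that level were 6 of the 8, so the absence says little. A positive difference was found in 6 of the 8, and the median was 0.20. STAT4, a STAT best known from lymphocytes, had differences of -0.15 at 6 h, of -0.37 at 24 h, and of 0.98 at 48 h, at levels of 1.31 with IL-6 and 0.668 in the control.

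SOCS3 was the feedback gene with the highest difference. It was at levels of 3.19 (IL-6) and 0.715 (control) at 6 h, 2.58 (IL-6) and 0.984 (control) at 24 h, and 8.48 (IL-6) and 0.509 (control) at 48 h. All IL-6 libraries were above all controls, and the IL-6 library of 48 h was the highest. The difference at 48 h was 4.06, or 16.7-fold, against a control span of 0.95, at a level too low for the filter of 10. SOCS1 (0.55) and CISH (0.33), inhibitors of the same family, were below 2-fold, and SOCS2 was at -0.62. DUSP1, a phosphatase that ends MAP kinase signalling, was lower, at -1.93, at levels of 0.380 with IL-6 and 1.45 in the control. SOCS3 and DUSP1 were the 2 genes past 2-fold among 11 feedback inhibitors, beside 9.53% of all genes. The median of the 11 was 0.22.

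Known STAT3 targets held 7 genes at least 2-fold higher with IL-6 and none at least 2-fold lower, of 26 with 6 values, beside 5.11% and 4.42% over all genes. Their median was 0.22 beside -0.04, and 21 had a positive difference, beside 45.6% of all genes. Of the 7, all but ICAM1 were beyond their control span. Acute phase genes that liver makes in response to IL-6 were largely without a value in all 6 libraries: CRP had none in any, and SAA1 only in some.

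PIM1, a serine/threonine kinase gene of cell survival, lies on chromosome 6 from 37170152 to 37175428. It stood at 0.89 (IL-6) and -1.26 (control) at 6 h, at 1.15 (IL-6) and -1.60 (control) at 24 h, and at 1.96 (IL-6) and -1.14 (control) at 48 h. The groups did not overlap, and the controls stayed within 0.47 of each other. At 48 h PIM1 was 8.54-fold higher, a difference of 3.09.

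BCL3, on chromosome 19 from 44747705 to 44760044, encodes a nuclear IκB protein that modulates NF-κB dimers. It stood at 0.48 (IL-6) and -1.93 (control) at 6 h, at 1.28 (IL-6) and -1.34 (control) at 24 h, and at 1.96 (IL-6) and -0.46 (control) at 48 h. Both the IL-6 and the control values were higher at later times, with a gap of similar size at each. The difference was 2.42 at 48 h.

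MUC1, a membrane mucin gene, was at levels of 8.17 (IL-6) and 6.51 (control) at 6 h, 26.4 (IL-6) and 7.49 (control) at 24 h, and 21.6 (IL-6) and 4.23 (control) at 48 h. The libraries were close at 6 h and apart later, and the difference at 48 h was 2.35. HP, which encodes the haemoglobin-binding acute phase protein haptoglobin, was at 24.6 with IL-6 and 9.09 in the control at 48 h. Its control span of 1.07 was close to its difference of 1.44, since the control of 6 h was at a level of 19.1.

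The remaining 3 of the 7 were ICAM1, BCL6 and IL4R. IL4R, a chain of the interleukin-4 receptor, was at levels of 11.4 with IL-6 and 5.39 in the control at 48 h. BCL6, a transcriptional repressor gene, was at 3.16 with IL-6 and 1.25 in the control, a difference of 1.33. ICAM1, an adhesion molecule gene, was at 8.83 with IL-6 and 1.02 in the control, a difference of 3.12. This lay within its control span of 5.55, which came from a control value of -4.84 at 6 h.

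The list also held MYC (0.10), MCL1 (0.19), CEBPD (0.10), JUNB (0.58) and VEGFA (0.73), all below 2-fold. CCND1, the cyclin D1 gene, had the lowest difference, at -0.93. FCGR1A (0.61) shares near-identical sequence with FCGR1B and FCGR1CP, so its value is uncertain.

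Promoter windows of RefSeq on GRCh38.p14, from 250 bases before the start to 50 after it, were searched for the palindromic STAT motif TTCNNNGAA, which reads the same on both strands. Of 35116 windows 2689 (7.66%) held it. Of the 7165 genes, 5917 were matched and 496 (8.38%) of these held it, as did 7 of 48 matched genes at least 2-fold higher (14.6%) and 2 of 10 matched genes at least 2-fold lower (20%). The 7 were CD14, IFITM1, METRNL, OAS1, HK1, TCF4 and ACSS2, and the 2 were AKAP7 and IL18BP. Such a match describes letters and is no evidence of binding, and the counts are small.

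Of the IL-6 genes at least 2-fold higher, ICAM1 and BCL6 held the motif, and no motif was in the windows of SOCS3, PIM1, BCL3, MUC1 and IL4R. HP was not matched. BCL6 has another window on chromosome 3, from 187736452 to 187736751, that held no motif. Their windows are printed because they show what a STAT palindrome looks like beside these genes, and that of CD14, picked after its values were seen, because it had the highest difference of the 7165 genes. Capitals mark the motif. Offsets give its first base, negative before the start and positive from the start on, and there is no 0. ICAM1 is chr19:10270870-10271169 on the plus strand, with the motif at offset -75. BCL6 is chr3:187745419-187745718 on the minus strand, with motifs at offsets -28, -5, 11 and 37. CD14 is chr5:140633126-140633425 on the minus strand, with the motif at offset -123.
ICAM1: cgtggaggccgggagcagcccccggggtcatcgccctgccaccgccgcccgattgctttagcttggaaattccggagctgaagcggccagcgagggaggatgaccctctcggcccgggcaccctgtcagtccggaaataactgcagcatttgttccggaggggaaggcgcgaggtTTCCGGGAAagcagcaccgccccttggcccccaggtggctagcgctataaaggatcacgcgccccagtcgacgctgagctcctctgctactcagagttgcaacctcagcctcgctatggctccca
BCL6: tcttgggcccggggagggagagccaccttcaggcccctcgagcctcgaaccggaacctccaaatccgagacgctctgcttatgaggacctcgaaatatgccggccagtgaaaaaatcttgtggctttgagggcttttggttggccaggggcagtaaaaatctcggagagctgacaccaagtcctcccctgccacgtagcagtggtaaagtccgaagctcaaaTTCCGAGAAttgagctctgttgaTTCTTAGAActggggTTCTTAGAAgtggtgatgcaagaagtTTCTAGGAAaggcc
CD14: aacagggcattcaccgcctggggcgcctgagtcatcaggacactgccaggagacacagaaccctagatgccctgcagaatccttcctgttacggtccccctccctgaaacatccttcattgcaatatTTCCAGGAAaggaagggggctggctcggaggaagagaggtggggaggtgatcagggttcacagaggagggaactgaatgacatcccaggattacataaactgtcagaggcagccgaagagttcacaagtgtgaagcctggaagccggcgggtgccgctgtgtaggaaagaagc

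**Figure D2:**
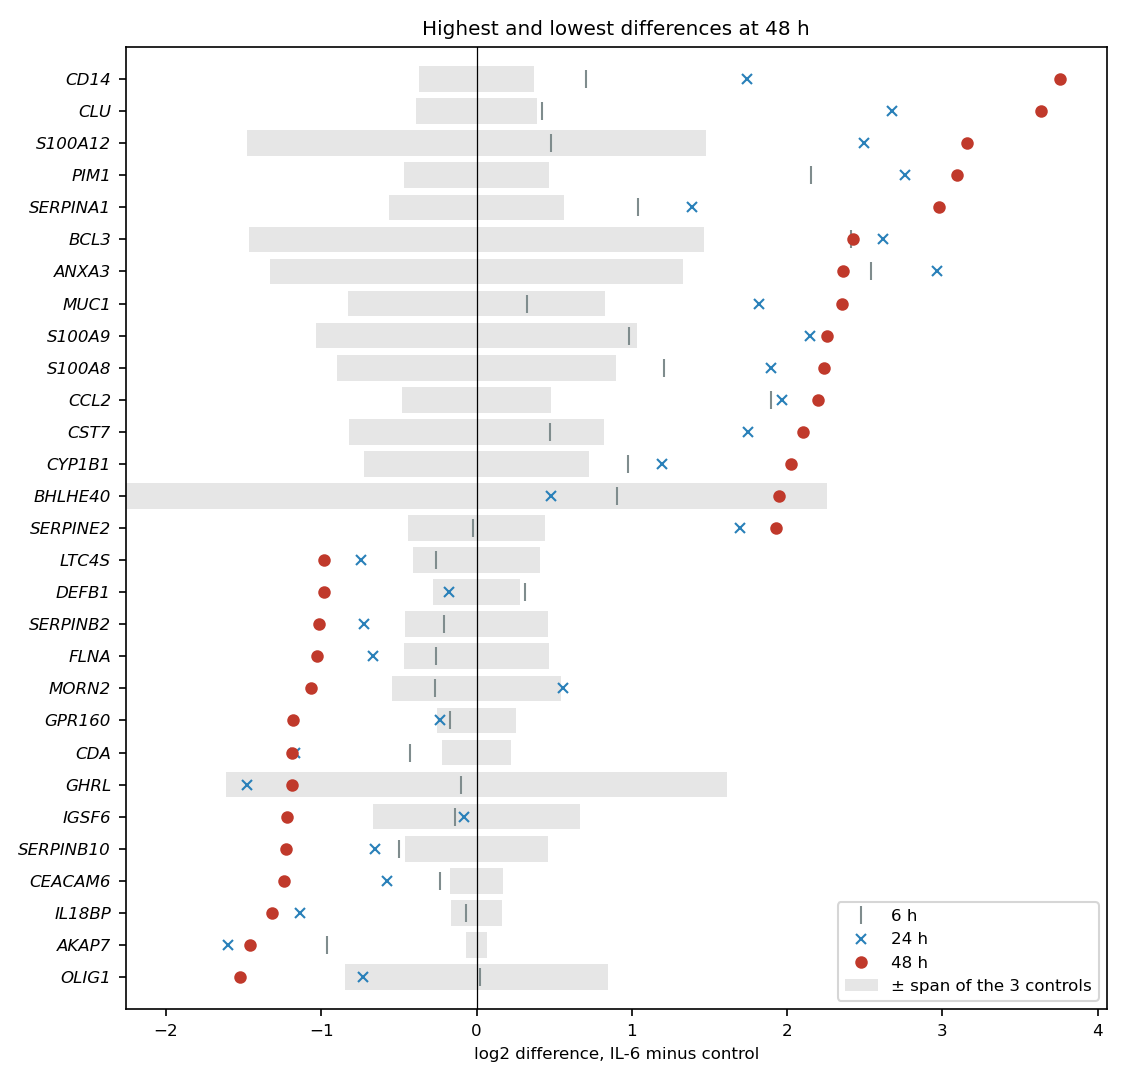
Differences, IL-6 minus control on the log2 scale, for the 15 highest and 14 of the 15 lowest of the 7165 genes at 48 h (circles), with those at 24 h (crosses) and 6 h (vertical ticks); grey bars reach the control span to either side of 0. CD14 is at the top with 3.76 and OLIG1 at the foot with -1.53, and the circles of BHLHE40 and GHRL lie inside their bars.

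The highest difference of the 7165 genes was that of CD14, the co-receptor that hands lipopolysaccharide to Toll-like receptor 4. The gene lies on chromosome 5 from 140631728 to 140633701, and its level was not recovered. CD14 stood at -0.16 (IL-6) and -0.87 (control) at 6 h, at 0.50 (IL-6) and -1.24 (control) at 24 h, and at 2.77 (IL-6) and -0.99 (control) at 48 h. The controls stayed within 0.37, and the IL-6 libraries were further above them at each later time. At 48 h CD14 was 13.5-fold higher, a difference of 3.76. Its window is printed above.

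Other genes of the lipopolysaccharide receptor were uneven. LY96, which encodes the Toll-like receptor 4 partner MD-2, was at levels of 6.37 with IL-6 and 0.588 in the control at 48 h, a difference of 3.44. TLR4 itself differed by -0.31 and TLR2 by 0.01, and the adaptor gene MYD88 by 0.52. The RNA-sensing receptor genes TLR7 (2.04) and TLR8 (1.69) were higher at levels under 2 in both libraries, TLR8 within its control span. TLR5, the flagellin receptor gene, was lower (-2.25), at 0.144 with IL-6 and 0.687 in the control. Of the 17 genes 4 were at least 2-fold higher and 1 lower, beside 5.11% and 4.42% of all genes, with a median of 0.03. Of the 7 at a mean level of at least 10, 1 was at least 2-fold higher and none lower, beside 0.851% and 0.181% of all genes at that level.

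CLU, on chromosome 8 from 27596917 to 27614700, encodes clusterin, a secreted chaperone that also restrains complement. It stood at -0.57 (IL-6) and -0.99 (control) at 6 h, at 1.67 (IL-6) and -1.01 (control) at 24 h, and at 2.26 (IL-6) and -1.38 (control) at 48 h. The libraries were within 0.42 at 6 h and far apart later, and the difference at 48 h was 3.64, or 12.5-fold. Of 13 complement components and regulators, CLU alone was at least 2-fold higher and 2 were at least 2-fold lower, beside 5.11% and 4.42% of all genes. The median of the 13 was -0.22. These 2 were the protease genes C1R (-3.56) and C1S (-1.90) of the classical pathway. They were at levels of 0.0168 and 0.830 with IL-6 and of 0.198 and 3.09 in the control. The IL-6 level of C1R was close to the floor of 0.00998 described with the processing.

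The calgranulin genes, which encode calcium-binding alarmins of monocytes and neutrophils, were higher together. S100A8 stood at 0.67 (IL-6) and -0.54 (control) at 6 h, at 1.21 (IL-6) and -0.69 (control) at 24 h, and at 0.80 (IL-6) and -1.44 (control) at 48 h. Its partner in calprotectin, S100A9, stood at 0.63 (IL-6) and -0.35 (control) at 6 h, at 1.18 (IL-6) and -0.97 (control) at 24 h, and at 0.87 (IL-6) and -1.38 (control) at 48 h. S100A12 stood at 0.15 (IL-6) and -0.33 (control) at 6 h, at 1.57 (IL-6) and -0.92 (control) at 24 h, and at 1.34 (IL-6) and -1.81 (control) at 48 h. In all 3 genes the IL-6 values were above every control, the IL-6 library of 24 h was the highest, and the control of 48 h was the lowest.

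The differences at 48 h were 2.23 for S100A8, 2.26 for S100A9 and 3.16 for S100A12. These 3 genes lie on chromosome 1, between 153357854 and 153391073. Of 9 S100 genes 4 were at least 2-fold higher, beside 5.11% of all genes, the other being S100P (1.16), and the median was 0.91. S100A4 (-0.13), S100A6 (-0.34) and S100A11 (-0.01) stood near or below the median of all genes.

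SERPINA1, the gene of α1-antitrypsin, which inhibits neutrophil elastase, lies on chromosome 14 from 94376747 to 94390693. It stood at 0.04 (IL-6) and -1.0 (control) at 6 h, at 0.82 (IL-6) and -0.57 (control) at 24 h, and at 1.84 (IL-6) and -1.13 (control) at 48 h. Each IL-6 library was above all controls, and the difference at 48 h was 2.98, or 7.88-fold. The genes of the granule proteases themselves did not share that direction. CTSG, the cathepsin G gene, differed by -0.85 against a control span of 0.06, and MPO (-0.68), LYZ (-0.52), PRTN3 (-0.50) and AZU1 (-0.44) were also negative. ELANE, the neutrophil elastase gene, differed by 0.14. The 13 genes of granules, lysozyme and serpins had a median of -0.43, with SERPINA1 alone at least 2-fold higher and SERPINB2 (-1.01) alone at least 2-fold lower.

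**Figure D3:**
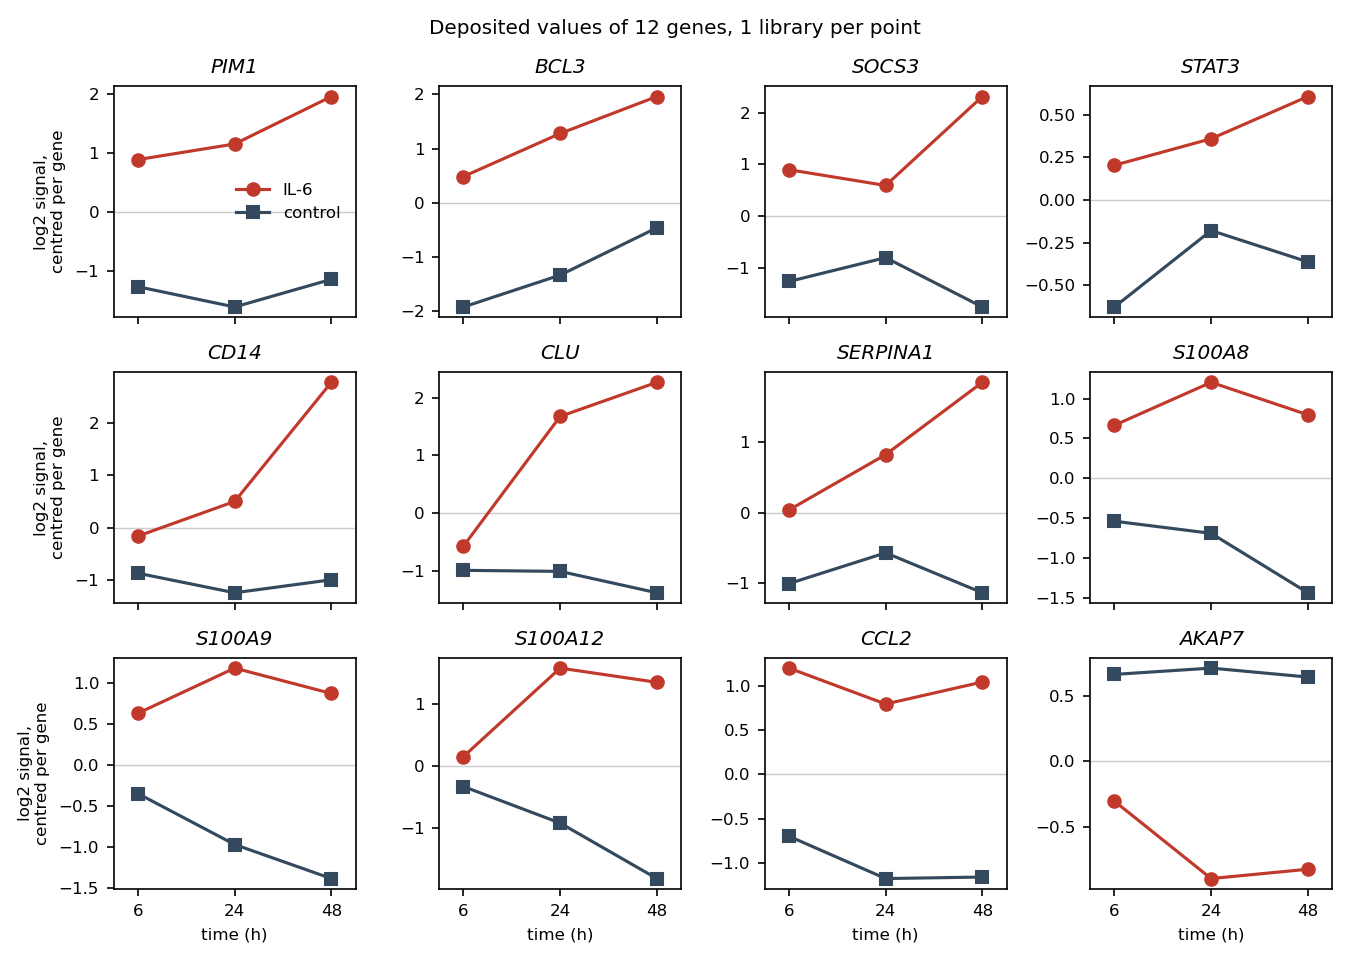
Deposited log2 values, centred per gene, of 12 genes in the IL-6 (red circles) and control (dark squares) libraries at 6, 24 and 48 h, 1 library per point, with a vertical scale of its own for each gene. CD14 is at 2.77 with IL-6 and -0.99 in the control at 48 h, while AKAP7 lies below its controls at every time.

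Among chemokine genes, CCL2, whose product attracts monocytes, had the highest difference. It stood at 1.20 (IL-6) and -0.70 (control) at 6 h, at 0.79 (IL-6) and -1.18 (control) at 24 h, and at 1.04 (IL-6) and -1.16 (control) at 48 h. The gap was of similar size at each time, and was 2.20 at 48 h, at levels of 36.6 with IL-6 and 7.97 in the control. CCL4 (1.44) and CXCL8 (1.20) were also at least 2-fold higher, CXCL8 within its control span of 1.69 and below its control at 6 and 24 h. CXCL2 was lower, at -4.48, at levels of 0.0307 with IL-6 and 0.688 in the control. Of 17 chemokine genes 9 had values in all libraries, with a median of 0.37, against -0.30 for the 3 at a mean level of at least 10.

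Receptors for chemoattractants were at least 2-fold higher in 6 of 12 genes, beside 5.11% of all genes, and at least 2-fold lower in none. Of the 12 genes 9 were positive, and the median was 0.79. FPR1, the formyl peptide receptor gene, was at levels of 5.32 (IL-6) and 1.73 (control) at 6 h, 4.73 (IL-6) and 0.668 (control) at 24 h, and 14.4 (IL-6) and 1.72 (control) at 48 h. The IL-6 libraries were above all controls, and the difference at 48 h was 3.07. CXCR1, a receptor for CXCL8, was at 3.52 with IL-6 and 0.500 in the control at 48 h, and PTAFR, the receptor for platelet-activating factor, at 11.6 with IL-6 and 2.70 in the control.

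The complement receptor genes C5AR1 (1.68) and C3AR1 (1.20) were within their control spans of 3.76 and 2.67. FPR2 was just past 2-fold, and the chemokine receptor genes CCR2 (-0.18) and CXCR2 (-0.71) were negative. At a mean level of at least 10, none of the 6 chemoattractant receptor genes was 2-fold apart, beside 1.03% of all genes at that level, and their median was 0.05.

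Among Fc receptor genes 2 of 6 were at least 2-fold higher, beside 5.11% of all genes, with a median of 0.53. At a mean level of at least 10 none of 4 was, beside 0.851% of all genes at that level, and the median was 0.07. FCGR2B, the inhibitory receptor for IgG, was at levels of 16.3 with IL-6 and 1.27 in the control at 48 h. Its difference was 3.68 at 48 h but -0.44 at 24 h, and its control span was 3.30. It has near-identical relatives among the Fcγ receptor II genes, so its value is uncertain. FCAR, the IgA receptor gene, had differences of 0.16 at 6 h, of 0.00 at 24 h, and of 1.20 at 48 h.

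Integrin αM and dectin-1 were apart at 48 h alone. ITGAM stood at 0.00 (IL-6) and 0.57 (control) at 6 h, at -0.79 (IL-6) and -0.26 (control) at 24 h, and at 1.04 (IL-6) and -0.55 (control) at 48 h. CLEC7A, the β-glucan receptor gene, stood at -0.02 (IL-6) and 0.29 (control) at 6 h, at -1.18 (IL-6) and -0.48 (control) at 24 h, and at 1.88 (IL-6) and -0.49 (control) at 48 h. In both genes IL-6 was the lower library at 6 and 24 h and the highest of the 6 libraries at 48 h. Of 14 scavenger and adhesion receptor genes, these 2 were at least 2-fold higher and 1 other was at least 2-fold lower. The shares over all genes were 5.11% and 4.42%, and the median of the 14 was 0.17. At a mean level of at least 10 none of 8 was 2-fold apart, beside 1.03% of all genes at that level. Of the 9 monocyte markers with values, CD14 (3.76) and ITGAM were at least 2-fold higher, beside 5.11% of all genes, and the median was -0.17. The other markers were not 2-fold apart, among them LYZ (-0.52), CD33 (-0.38), TYROBP (-0.26), CD68 (-0.17) and CSF1R (0.16). In bulk RNA, fewer cells of a kind and less RNA per cell cannot be told apart.

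MMP9, the gelatinase B gene, was another gene apart at 48 h alone. IL-6 and control differed by -0.23 at 6 h and by -0.06 at 24 h, and by 2.76 at 48 h. Its levels at 48 h were 8.70 with IL-6 and 1.28 in the control. SPP1, which encodes osteopontin, had differences of -0.14, 0.04 and 1.63 at the same times. VCAN, the gene of the proteoglycan versican, was apart at each time, with levels of 16.8 with IL-6 and 2.30 in the control at 48 h. These were the 3 of 15 matrix genes at least 2-fold higher, beside 5.11% of all genes, and none was at least 2-fold lower, beside 4.42%. MMP14 (-0.54), TIMP2 (-0.34) and TIMP1 (-0.27) were negative.

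Inflammatory cytokine genes held 1 gene at least 2-fold higher and 1 lower of 12, beside 5.11% and 4.42% of all genes, with a median of 0.01. OSM, which encodes oncostatin M, a cytokine that also signals through gp130, was at levels of 1.53 with IL-6 and 0.186 in the control. IL1B (0.70) and TNF (-0.10) were below 2-fold, and IL6 itself had no value in any library. IL18BP, whose product neutralises interleukin-18, was at levels of 17.6 (IL-6) and 18.4 (control) at 6 h, 7.455 (IL-6) and 16.4 (control) at 24 h, and 6.98 (IL-6) and 17.4 (control) at 48 h. The IL-6 libraries of 24 and 48 h were well below the other 4, and the difference at 48 h was -1.32. IL18 itself differed by -0.87.

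In the NF-κB and IκB family BCL3 and NFKBIZ (1.87) were at least 2-fold higher of 14, beside 5.11% of all genes. NFKBIA, the gene of the main cytosolic inhibitor, differed by 0.12. NFKBIZ, another nuclear IκB gene, was at 6.75 with IL-6 and 1.85 in the control at 48 h.

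Interferon-stimulated genes were mostly on the positive side, with 29 of 32 above 0, beside 45.6% of all genes, and a median of 0.40. Of the 32, 10 were at least 2-fold higher, beside 5.11% of all genes, and ISG20 (-1.39) was at least 2-fold lower, and 7 of these 11 were beyond their control span. GBP2, a guanylate-binding protein gene, was at levels of 9.05 with IL-6 and 1.94 in the control at 48 h. LAP3, an aminopeptidase gene, stood at 0.60 (IL-6) and -0.65 (control) at 6 h, at 0.84 (IL-6) and -0.71 (control) at 24 h, and at 0.70 (IL-6) and -0.78 (control) at 48 h. Its groups were far apart and each was tight, with a control span of 0.12.

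The membrane-associated antiviral genes IFITM1 (1.38) and IFITM3 (1.26) were higher, and IFITM2 was at 0.85. These 3 genes are alike in sequence, so single values are uncertain. Of other commonly used interferon markers, ISG15 was at 0.14, IFIT1 at 0.16, MX1 at 0.44 and RSAD2 at 0.18. IFI44L had a difference of 1.88 at 48 h and of -3.29 at 6 h, and EPSTI1 of 1.68 at 48 h and -1.22 at 6 h.

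Antigen presentation by MHC class II leaned the other way: 2 of 11 genes were positive, beside 45.6% of all genes, and the median was -0.22. HLA-DRA (-0.25), HLA-DPA1 (-0.22) and the invariant chain gene CD74 (-0.20) made small differences. HLA-DMB (-1.41) was the 1 past 2-fold, beside 9.53% of all genes. It was at levels of 0.267 with IL-6 and 0.712 in the control, and within its control span of 1.52. The class II transactivator gene CIITA was at 0.45. MHC class I genes had a median of 0.04 and none was 2-fold apart. HLA genes resemble each other and vary between alleles, so single members are uncertain.

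Stress and sugar metabolism genes were positive almost throughout, but they also varied among the controls. All 23 genes of the integrated stress and amino acid response with values had a positive difference, beside 45.6% of all genes, with a median of 0.56. STC2 (2.35), ATF3 (2.11), NUPR1 (1.33), DDIT4 (1.15) and CHAC1 (1.09) were at least 2-fold higher, 5 of 23 beside 5.11% of all genes, and ATF3 alone was beyond its control span. ATF4, the transcription factor that leads this response, differed by 0.37, and its target ASNS, asparagine synthetase, by 0.57.

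Glycolysis and hypoxia genes had a positive difference in 23 of 24, beside 45.6% of all genes, and a median of 0.42. Of the 4 at least 2-fold higher, beside 5.11% of all genes, HK1, the hexokinase 1 gene, was beyond its control span. HK1 stood at -0.06 (IL-6) and -0.18 (control) at 6 h, at -0.02 (IL-6) and -0.11 (control) at 24 h, and at 0.70 (IL-6) and -0.33 (control) at 48 h. The libraries were close until 24 h and apart at 48 h. SLC2A3 (2.39), PFKFB4 (2.39) and ALDOC (1.13) were within control spans of 3.12, 2.70 and 2.72. The list medians were 0.05 at 6 h and 0.06 at 24 h for glycolysis and hypoxia, and 0.17 at 6 h and 0.54 at 24 h for the stress response.

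HMOX1, the haem oxygenase gene, was at levels of 2.08 (IL-6) and 1.18 (control) at 6 h, 3.73 (IL-6) and 0.444 (control) at 24 h, and 7.95 (IL-6) and 0.769 (control) at 48 h. All IL-6 libraries were above all controls. HMOX1 was the 1 gene past 2-fold among 18 genes of oxidative stress, beside 9.53% of all genes, and the median of the 18 was -0.09. The glutathione and quinone genes GCLM (0.50) and NQO1 (0.28) were below 2-fold. Of 10 iron genes SLC11A1, the phagosomal metal transporter gene NRAMP1, was alone past 2-fold, beside 9.53% of all genes. It was at levels of 8.06 (IL-6) and 8.47 (control) at 6 h, 18.7 (IL-6) and 8.46 (control) at 24 h, and 33.5 (IL-6) and 9.79 (control) at 48 h. The libraries were close at 6 h, and IL-6 was above every control at 24 and 48 h.

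Cell growth programmes had medians close to that of all genes. None of 27 mitotic genes was 2-fold apart (median 0.03), nor was any of 23 genes of MYC and ribosome biogenesis (median -0.04). Most of these were at a mean level of at least 10, where 1.03% of all genes were 2-fold apart. An absence in lists of this size thus says little. Of 29 replication genes 5 were positive, beside 45.6% of all genes, with a median of -0.09. POLA1 (1.05) was the 1 past 2-fold, beside 9.53% of all genes. The cell cycle inhibitor genes CDKN1A (0.90) and CDKN1C (1.02) were positive and CDKN1B (-0.76) was negative.

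Cytosolic ribosomal protein genes were positive in 2 of 30, with a median of -0.18, and nuclear genes of oxidative phosphorylation in 4 of 27, with a median of -0.15, beside 45.6% of all genes. Mitochondrially encoded genes had a median of -0.14. In all 3 lists the medians at 6 and 24 h were positive, between 0.08 and 0.31. Lysosomal genes had a median of 0.07, with CTSB, the cathepsin B gene, at 0.93 against a control span of 0.15. The 12 housekeeping genes had a median of 0.02 and none was 2-fold apart. All 12 were at a mean level of at least 10, where 1.03% of all genes were 2-fold apart.

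**Figure D4:**
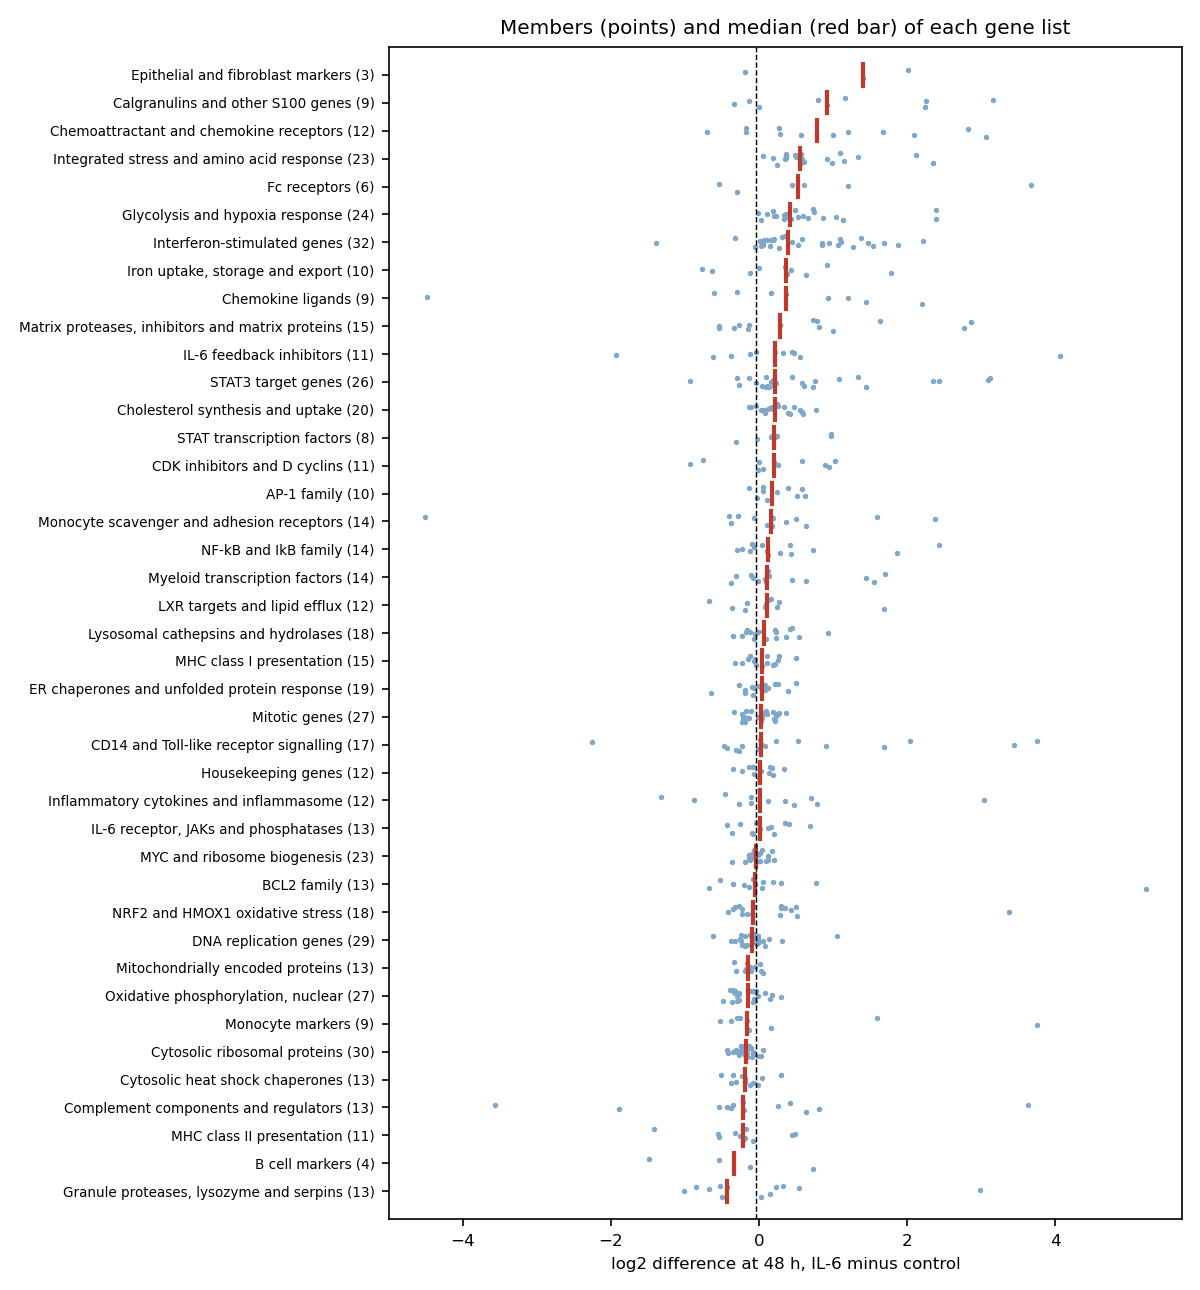
Difference at 48 h, IL-6 minus control on the log2 scale, for each member (points) and the median (red bar) of the 41 gene lists with at least 3 measured members; the number measured is in brackets and the dashed line is the median of all genes, -0.04. Of the 41 medians 28 lie above that line, among them 0.91 for S100 genes, 0.79 for chemoattractant receptors and 0.56 for the stress response, and the granule list is lowest at -0.43.

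Few markers of other cell types could be read. Of 11 T and NK cell markers IL7R and NKG7 had values in all libraries, and CD3E, CD2 and KLRD1 had none in any. IL7R, also expressed by activated monocytes, was at levels of 7.49 with IL-6 and 0.394 in the control at 48 h, and NKG7 differed by 0.89. Of 10 epithelial and fibroblast markers 3 had values in all libraries and 4 in some, with KRT18 (1.41) and PDGFRB (2.01) at levels under 1 in both libraries and KRT8 at -0.19. Of the B cell markers 4 of 6 had values and the median was -0.33. A part of other cells in the differences above was not tested.

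The lowest differences were smaller in size than the highest. AKAP7, an A-kinase anchoring protein gene on chromosome 6 from 131135467 to 131283535, stood at -0.30 (IL-6) and 0.66 (control) at 6 h, at -0.89 (IL-6) and 0.71 (control) at 24 h, and at -0.82 (IL-6) and 0.64 (control) at 48 h. The controls lay within 0.07 and every IL-6 library was below them. OLIG1, a transcription factor gene best known from oligodendrocytes, was lowest at -1.53, at levels of 5.44 with IL-6 and 15.7 in the control.

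CDA, the cytidine deaminase gene, was at levels of 15.9 (IL-6) and 21.4 (control) at 6 h, 9.79 (IL-6) and 22 (control) at 24 h, and 11 (IL-6) and 25 (control) at 48 h. All IL-6 libraries were below all controls. CEACAM6 (-1.24), an adhesion molecule gene of granulocytes and epithelia, SERPINB10 (-1.23), IGSF6 (-1.22), GPR160 (-1.18) and MORN2 (-1.07) followed, and of these MORN2 was positive at 24 h, at 0.56. FLNA, the filamin A gene, was at -1.03.

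Most of the 61 higher genes were further from the control at 48 h than before. The difference was largest at 48 h in 52 of the 61, and in 43 it was ordered from 6 over 24 to 48 h. At 24 h 25 of the 61 were also at least 2-fold higher and 54 had the same sign, and at 6 h 12 were at least 2-fold higher and 43 had the same sign. The choice of these genes by their difference at 48 h favours that order.

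Of the same 61 genes, 48 were beyond their control span, and in 51 the IL-6 library of 48 h was above all other 5 libraries. Of the 13 lower genes 12 were beyond the control span and in 10 the IL-6 library of 48 h was below all others. Choosing the genes by their difference at 48 h favours these counts as well, so they only describe the chosen genes. Both directions together gave 60 genes beyond the span (0.837% of 7165). Among the 13 higher genes within it were BHLHE40, a clock-related transcription factor gene (1.95, span 2.26), IRF7 (1.07) and PARP9 (1.11).

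SERPINE2, an inhibitor of thrombin and plasminogen activators, is an example of a late difference, at -0.02, 1.70 and 1.93 at 6, 24 and 48 h. ANXA3, an annexin gene, is an example of an early one, at 2.54, 2.97 and 2.36, and CYP1B1, a cytochrome P450 gene, was at 0.97, 1.19 and 2.03. CST7, which encodes the cathepsin inhibitor cystatin F, was at 0.47, 1.75 and 2.10.

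Further genes past 2-fold were picked after their values were seen. TMEM176B, a membrane protein gene, was higher by 1.62 with a control span of 0.06, CEACAM4 by 1.45 with a span of 0.15, and GAS6, the ligand of TAM receptor kinases, by 1.17 with a span of 0.19. IL4I1, an amino acid oxidase gene, was at levels of 32.4 with IL-6 and 8.50 in the control, and DNASE2, the lysosomal nuclease gene, at 28.9 with IL-6 and 9.06 in the control. In the eicosanoid pathway TBXAS1, thromboxane synthase, was higher by 1.28 and ALOX5, 5-lipoxygenase, by 1.05, while the leukotriene C4 synthase gene LTC4S was at -0.98. FCGR1B (1.17) and SULT1A4 (1.16) have near-identical copies and are uncertain.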

How the data were processed

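SMART-Seq v4 cDNA of total RNA was made into Nextera XT libraries for a NovaSeq instrument, per the labels' protocols. Neither kit marks strand, so a gene's reads and those of its antisense partner are pooled. GRCh38 (hg38) was the build, per the submitters' processing notes. How reads were aligned, counted and normalized is not given in the sources used here. Per the file headers each deposited table holds 1 processed signal per gene on a log2 scale, and each gene's deposited values average 0.

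Differences are IL-6 minus control at the same time, computed with pandas 2.3.3 and numpy 2.4.6 in Python 3.11.15, and plotted with matplotlib 3.10.9. Levels came from the ratios of a gene's values, which are ratios of whole numbers of steps within relative tolerances of 2e-06, or 6e-07 above a level of 5. Whole numbers up to a level of 20 were tried first, then a floor of 0.00998, then whole numbers up to 100. At the floor 111 genes had libraries. The 1591 genes without a match were treated as high. Of 2000 decoys, real genes with values shifted at random, 127 were matched and 4 of these at up to 50. The method was tested on simulated data.

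The named genes are the 15 highest and 15 lowest at a level of at least 10, all genes of the 4 IL-6 lists and up to 6 or the median member of each other list. Of these, 2 genes are not reported here. Other genes printed were chosen after their values were seen. The members, lists and rules were chosen with earlier results of these data known, so no list has a test. With 1 library a side, counts past 2-fold take the place of a test.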

Additional observations from a re-analysis of the deposited data

Results flagged for a closer look

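Opposite directions were looked for among 657 genes, mainly list members and genes past 2-fold at a level of at least 10. Other genes were not searched. At a level of at least 5, 2 of the searched genes were past 2-fold in opposite directions at 6 and 48 h. OAS1, an antiviral oligoadenylate synthetase gene, differed by -1.67 at 6 h, 0.17 at 24 h and 1.09 at 48 h. PFKFB4, a regulator of glycolysis, differed by -1.82 at 6 h, 0.10 at 24 h and 2.39 at 48 h. Each time has 1 library a side, so the differences between times were not tested, and both genes lay within their control spans of 1.48 and 2.70.

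Outside the protein-coding genes, 379 genes of other types had values in all libraries and a mean level of at least 10, of which 4 were at least 2-fold higher with IL-6 and 10 at least 2-fold lower. Beyond their control spans were 3 of the higher and 7 of the lower genes. The 3 higher ones were the long non-coding gene ENSG00000262370 (1.30), the pseudogene NAIPP1 (1.21) and FCGR1CP (1.21), a near-identical copy of the Fcγ receptor I gene whose reads can be shared with FCGR1A and FCGR1B. FCGR1CP differed by 1.04 at 6 h and 1.32 at 24 h, and NAIPP1 by 0.83 at 6 h and 1.0 at 24 h. Of the 7 lower ones, mostly processed pseudogenes and long non-coding genes, ENSG00000224374 had the lowest value (-2.12), and RPL21P119, a pseudogene of a ribosomal protein gene, was at -1.07.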

How the results depend on the processing

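The counts and some list medians depend on how low genes are treated. As deposited, 666 genes were at least 2-fold higher with IL-6, 576 at least 2-fold lower, and 732 of both beyond the control span. At a level of at least 1 the counts were 346, 215 and 393, and at a level of at least 10 they were 61, 13 and 60; fewer genes are compared there by construction. With log2(level + 1) they were 184, 72 and 210, which pulls in low genes by construction. At a level of at least 10 and without the genes lacking a recovered level, a choice made after seeing the data, they were 44, 12 and 45. Equal library medians moved every difference by 0.0311 and gave 701, 545 and 735. Of 657 named genes 23 turned from below 0 to above it with equal medians, the largest of them 0.0295 in size as deposited, none changed sign with the pseudocount, and 41 moved by more than the SD of the controls with the pseudocount. Of the 74 genes past 2-fold at a level of at least 10, 7 were below it with the pseudocount and 2 with equal medians. Of 41 lists 28 had a median above that of all genes as deposited, with equal medians and with the pseudocount; at a level of at least 10 it was 26 of 39, and 3 lists changed side. These were chemokine ligands (-0.30 against 0.37), inflammatory cytokines (-0.11 against 0.01) and the BCL2 family (-0.02 against -0.06). The medians of chemoattractant receptors (0.05 against 0.79) and Fc receptors (0.07 against 0.53) were also lower there. With the pseudocount the matrix list's median was 0.12 against 0.28, and that of the 3 epithelial and fibroblast markers 0.50 against 1.41. No paired analysis was possible because each condition has 1 library, and no library could be left out. Depth is unknown, so no difference has an interval, and low genes at the floor are the least certain.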
